A study of Triticum turgidum subsp. durum with 24 samples.

Results

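Protein kinases and receptor kinases of durum wheat flag leaves were followed over 4 treatments in the cultivars Ofanto and Cappelli. The members are the 58 probe sets (PSs) whose annotation holds the words protein kinase or receptor kinase, with the PSs matching OST1 left out. They come from the parts held here of the study's lists of stress-modulated genes. Much of the longer list was not held, so the member set is incomplete. CIPK3, which the study names as raised by drought in Ofanto, is not in it. Counts by family and by cluster therefore cover the held rows only. The members are 58 of the 61290 PSs on the array and of the 3155 PSs whose annotation was held here, and they match 43 Arabidopsis genes. For 46 of them the match lies at or under an E-value of 1e-10, and for 12 it is weaker, so the family name of those 12 is less certain. The members were thus chosen by measured values: the lists had been made from these same arrays, comparing each stress with its control and CS with DS or HS within a cultivar, and 31 members also lay in 9 expression clusters that the study picked for raised profiles differing between the cultivars. Stress changes, differences in response and differences between the cultivars are therefore all given as description, with no test of the members. This holds for the 27 members outside the 9 clusters as well, since leaving out clusters picked for their profiles also selects by the measured values, and 18 of the 27 lay in other clusters of the same clustering.

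Each of the 8 groups held 3 arrays. Ctrl plants of both cultivars stood at a soil water content of 28% and a day temperature of 19°C. DS plants were at 12.5% and 19°C, HS plants at 28% and 40°C, and CS plants at 12.5% and 40°C. No other genotype, and no agent that sets the groups apart, is named within a cultivar. In growing the plants the study used ammonium fertilisers and, from tillering, a fungicide against powdery mildew. The study brought the heated plants to 40°C in steps over several days, with warmer nights, and took DS leaves after a shorter course. Duration and night temperature thus also separated the heated groups from the others. The plants stood in a randomised block design with 3 replications, and the study describes the 3 arrays of a group as biological replicates. The sources used here do not say how many plants went into each RNA sample. The labels name all leaf cells at 3 fully expanded leaves where the study describes the flag leaf at booting. The descriptions of Ofanto Ctrl replicates 2 and 3 carry the drought text, against their titles and source names, and both were kept as Ctrl.

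Plant receptor kinases span the cell membrane, bind peptides, wall fragments or other ligands outside the cell through domains such as leucine-rich repeats (LRRs) or lectin folds, and pass the signal on by phosphorylation, often through receptor-like cytoplasmic kinases. Inside the cell, calcium signals reach CBL-interacting protein kinases (CIPKs) through CBL calcium sensors and reach calcium-dependent protein kinases directly, SnRK2 kinases act in the responses to abscisic acid and water loss, and MAP kinases stand at the end of phosphorylation cascades. Kinases are controlled largely by phosphorylation, which an array does not measure. No member was annotated as calcium-dependent in the rows held here.

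The values are MAS5 signals, a linear intensity for each PS and array. PSs stayed in if in some group each of the 3 arrays exceeded its own 60th percentile, which left 28072 PSs (45.9%), and all 58 members passed. All of them had been listed as changed, so this is no result about kinases. In the green leaf list (PSs annotated as chlorophyll-binding, Rubisco or photosystem, taken from the same lists of stress-modulated genes) 7 to 9 of 9 PSs lay above the percentile in each group, with a brightest signal of 44643 to 76748 by group. Its median signal ran from 1285 in Cappelli Ctrl to 30860 in Ofanto HS. By the call rule given below, 3 of the 9 were higher and 5 lower in Cappelli HS, so the list did not move as 1. The 3′ minus 5′ log2 signal, averaged over the actin, EF1a, GAPDH and ubiquitin control pairs, lay between -1.42 and -0.457 in the 8 groups. The median SD between the 3 arrays was largest in Cappelli HS (0.272 log2) and Cappelli CS (0.322) and lay between 0.179 and 0.225 in the other groups. In whole leaves, fewer cells of a type and less RNA per cell cannot be told apart, and a PS can read the A and B genome copies of a gene together.

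**Figure D1:**
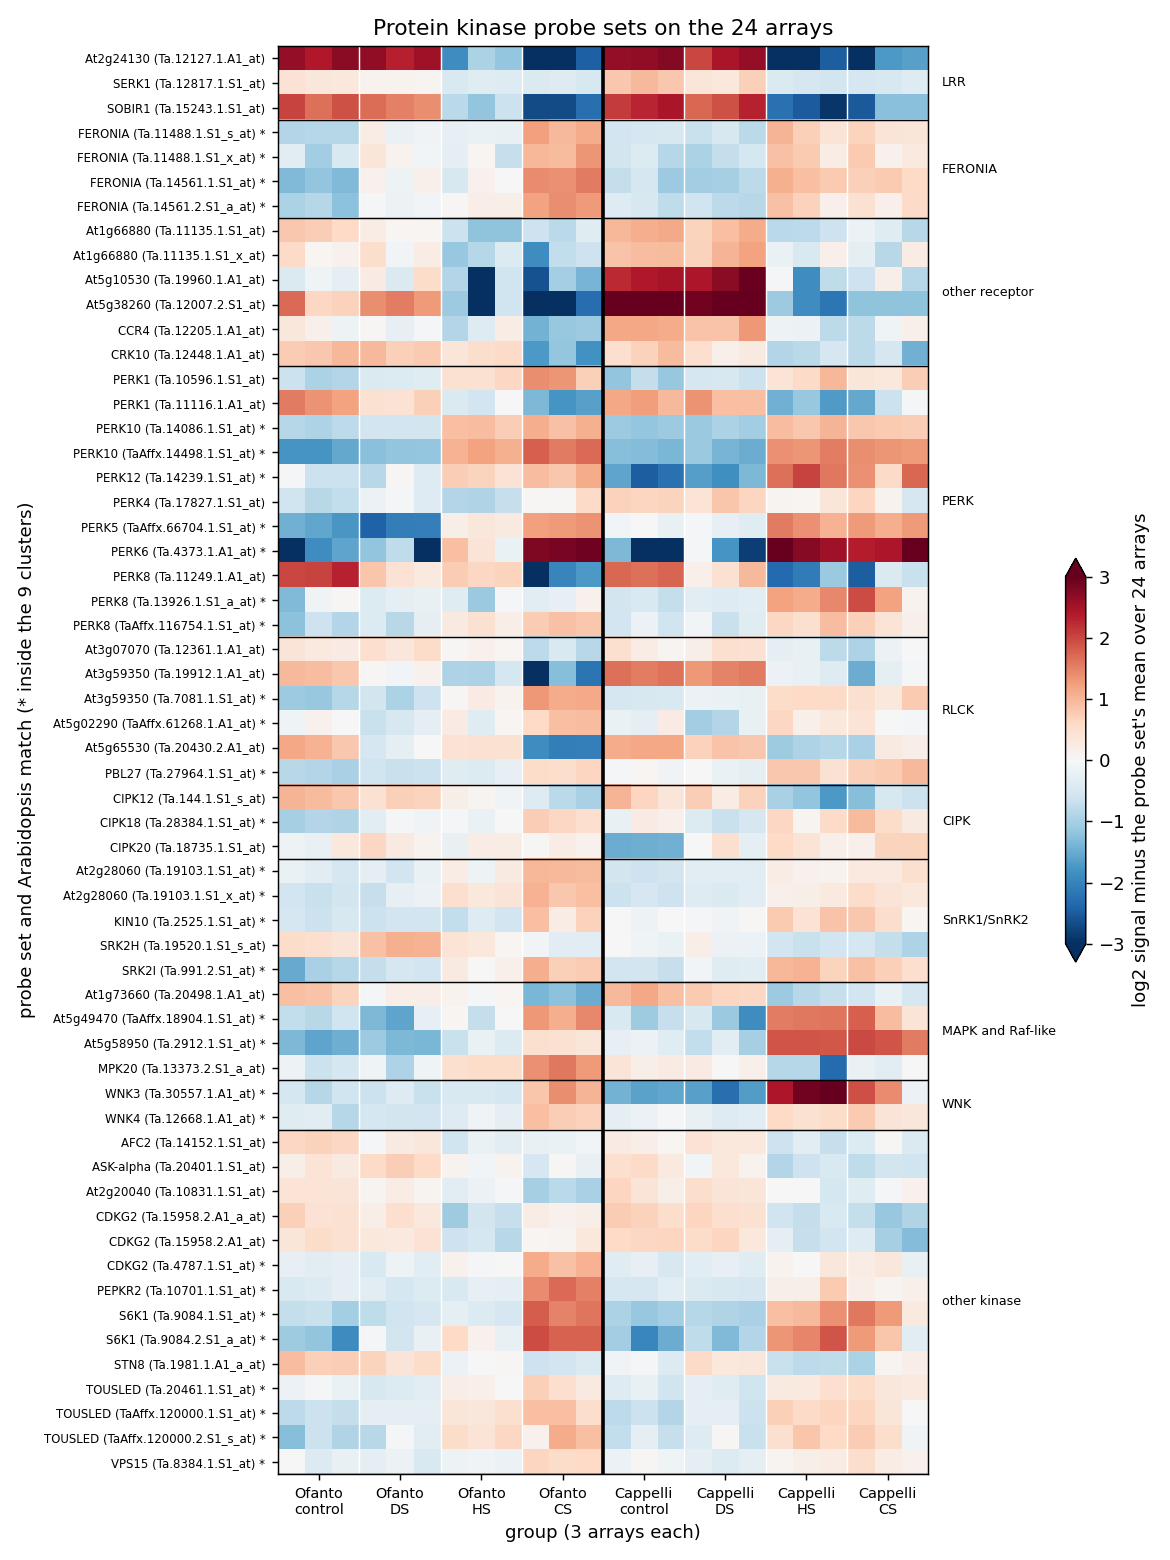
Log2 MAS5 signal of the 58 kinase PSs (rows, by role) on the 24 arrays (columns, 3 per group), each row centred on its own mean over the 24 arrays. Starred PSs lie inside the 9 clusters, where the rule fixes the raised profile, and 22 of those 31 have their highest group mean in Ofanto CS.

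Under heat, members were called in both directions. Under drought alone, 1.72% were called higher and 1.72% lower in Ofanto, and 1.72% higher and 0% lower in Cappelli, near the shares of all kept PSs. Called means 2-fold or more with a limma p below 0.01 after Benjamini-Hochberg adjustment over all kept PSs. For the members it only marks which values pass the threshold, and no p of a member is given. In Ofanto, DS gave 1 member called higher (2.67% of all kept PSs) and 1 lower (1.13%; 3.8% either way), HS 15 higher (10.4%) and 10 lower (7.46%; 17.9% either way), and CS 29 higher (14.4%) and 15 lower (19.7%; 34.1% either way). In Cappelli, DS gave 1 higher (0.891%) and 0 lower (0.445%; 1.34% either way), HS 22 higher (11.2%) and 19 lower (13.6%; 24.7% either way), and CS 19 higher (9.89%) and 18 lower (11.8%; 21.7% either way). Since the members were listed for such changes, nothing is read from these shares. Over the 6 comparisons 30 members were called only higher, 21 only lower and 6 in none, and the PS matching MPK20 was called higher in Ofanto CS and lower in Cappelli HS. The 6 were VPS15, At5g02290, SnRK2.5, 1 of 3 TOUSLED PSs, PERK4 and At3g07070, whose changes stayed within 0.99 log2 in either direction.

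The direction followed the split by cluster. All 14, 27, 20 and 17 calls of the 31 PSs inside the 9 clusters (Ofanto HS, Ofanto CS, Cappelli HS and Cappelli CS) were higher, as the choice of those clusters fixes. Of the 27 PSs outside them, 10 were called lower and 1 higher in Ofanto HS, 15 and 2 in Ofanto CS, 19 and 2 in Cappelli HS, and 18 and 2 in Cappelli CS. Their median changes were -0.83, -1.33, -1.44 and -1.40 log2, beside medians of 0.02, -0.17, -0.02 and -0.06 over all kept PSs. Of the 1395 other annotated PSs outside the 9 clusters, 20.4%, 42.7%, 34% and 29.8% were called lower in the same comparisons. The shares of those PSs called higher were 16.9%, 20.4%, 12% and 12%. The difference between the members and those PSs was not tested. For 18 of the 27 the highest group mean was a Ctrl group, 12 of them in Cappelli and 6 in Ofanto.

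The steepest falls among the LRR receptor kinases were those of the PSs matching At2g24130 and SOBIR1. At2g24130 is an LRR receptor kinase of Arabidopsis, and the 3 values of a group are its 3 arrays. At2g24130 read 3326, 2838 and 3511 in Ofanto Ctrl, 3397, 2699 and 3104 in DS, 146, 274 and 239 in HS and 31.3, 51.0 and 98.1 in CS. In Cappelli At2g24130 read 3335, 3402 and 3589 in Ctrl, 2143, 2922 and 3348 in DS, 36.9, 64.5 and 96.4 in HS and 37.3, 163 and 172 in CS. The 12 Ctrl and DS arrays lay above all 12 HS and CS arrays, with no overlap. The log2 change from Ctrl was -3.92 (SE 0.49) in Ofanto HS and -5.08 (SE 0.49) in Cappelli CS. Ofanto CS and Cappelli HS lay under the percentile on all 3 arrays, so the fall there was at least 28.4-fold and at least 27.7-fold. The DS changes were -0.07 (SE 0.49) and -0.32 (SE 0.49) and were not called.

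SOBIR1 (At2g31880) is the partner kinase of receptor-like proteins in immunity in Arabidopsis. SOBIR1 read 5396, 4151 and 4962 in Ofanto Ctrl, 4271, 3759 and 3487 in DS, 757, 584 and 848 in HS and 205, 207 and 275 in CS. In Cappelli SOBIR1 read 5722, 6448 and 7279 in Ctrl, 4409.9, 4996 and 6619.7 in DS, 283, 233 and 176 in HS and 233, 553 and 555 in CS. The signal was high in Ctrl and DS of both cultivars and low in HS and CS, and none of the Ctrl or DS arrays overlapped the heated arrays. In Ofanto it fell further in CS than in HS, with a log2 change of -4.40 (SE 0.27) against -2.74 (SE 0.27), whereas in Cappelli it fell with a log2 change of -4.83 (SE 0.27) in HS and -3.96 (SE 0.27) in CS. The heated Ofanto groups did not overlap each other, while Cappelli HS and CS did.

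SERK1 (At1g71830), a co-receptor of LRR kinases in Arabidopsis development, had the narrowest range of the LRR group. SERK1 read 2729, 2535 and 2497 in Ofanto Ctrl, 2175, 2170.5 and 2145 in DS, 1465, 1557 and 1544 in HS and 1489, 1547 and 1453 in CS. In Cappelli SERK1 read 3555, 3951 and 3546 in Ctrl, 2579, 2521 and 3289.8 in DS, 1482, 1416 and 1376 in HS and 1411, 1452 and 1542 in CS. The heated arrays of both cultivars read nearly the same, from 1376 to 1557, while the Ctrl arrays of Cappelli lay above those of Ofanto. The change was -0.76 (SE 0.10) and -0.79 (SE 0.10) in Ofanto HS and CS, under 2-fold, and -1.37 (SE 0.10) and -1.33 (SE 0.10) in Cappelli HS and CS, past it.

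**Figure D2:**
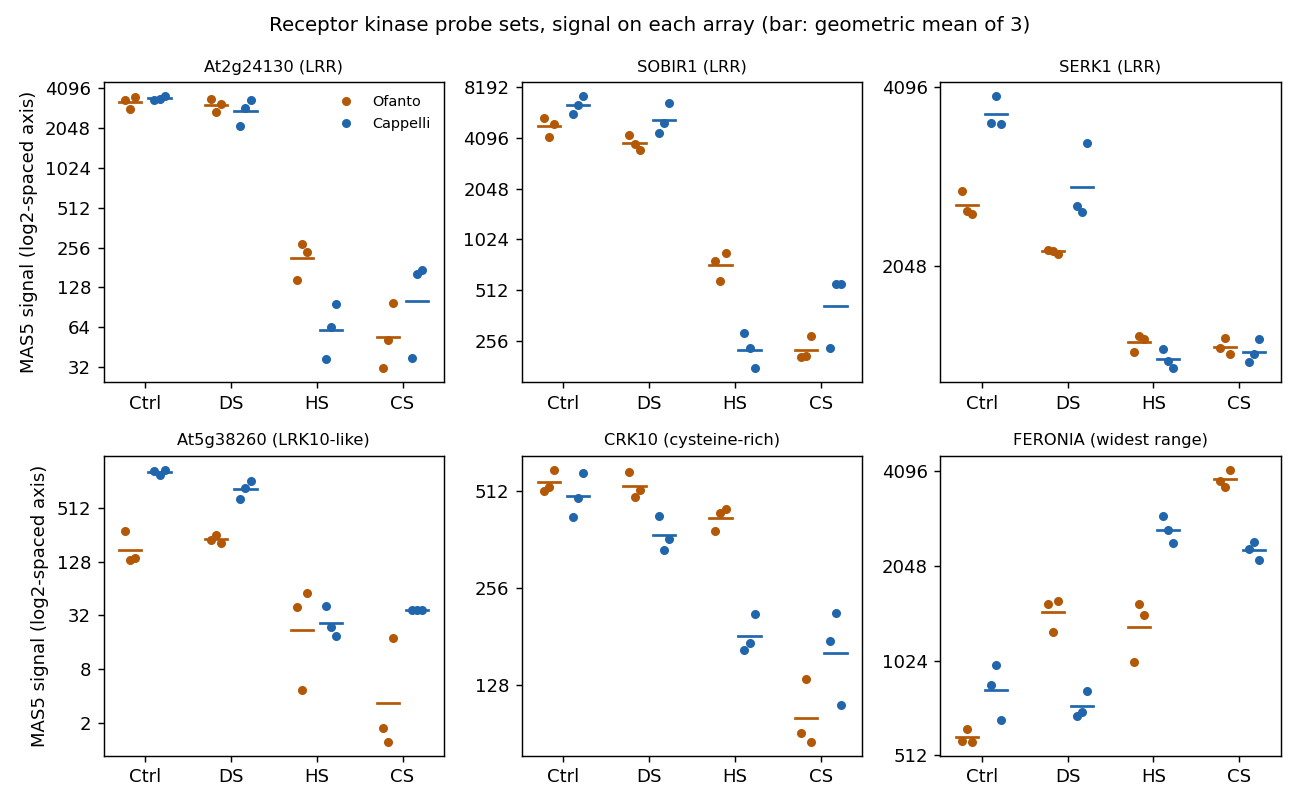
MAS5 signal on each array (points) and the geometric mean of 3 (bars) for 6 receptor kinase PSs, on a log2-spaced axis, by treatment and cultivar. At2g24130 and SOBIR1 lie high in Ctrl and DS and low in HS and CS of both cultivars, and the FERONIA PS of widest range is highest in Ofanto CS.

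All 6 PSs of the other receptor kinases were called lower in both Cappelli HS and Cappelli CS, 3 of 6 in Ofanto HS and 5 of 6 in Ofanto CS. The widest range was that of At5g38260 of the LRK10-like family. At5g38260 read 278, 133 and 139 in Ofanto Ctrl, 225, 251 and 208 in DS, 40.2, 4.68 and 56.5 in HS and 1.77, 1.24 and 17.7 in CS. In Cappelli At5g38260 read 1299, 1179 and 1358 in Ctrl, 645, 855 and 1014 in DS, 40.5, 23.7 and 19.1 in HS and 37.2, 37.0 and 37.1 in CS. In Ctrl and DS the Cappelli arrays lay above all the Ofanto arrays, and the heated groups of both cultivars lay under the percentile, where the order of signals is not read. The fall from Ctrl was thus at least 10.3-fold in Cappelli HS and at least 10.4-fold in Cappelli CS. In Ofanto, whose Ctrl signal was the lower, some Ctrl arrays also lay under the percentile, so no size of the fall is read there.

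The narrowest range in this group was that of 1 of a pair of PSs matching At1g66880, another LRK10-like kinase. At1g66880 read 601, 419 and 441 in Ofanto Ctrl, 582, 381 and 471 in DS, 185, 222 and 303 in HS and 111, 243 and 265 in CS. In Cappelli At1g66880 read 735, 769.8 and 777 in Ctrl, 648, 815 and 927 in DS, 353, 295 and 446 in HS and 332, 226 and 473 in CS. In both cultivars the Ctrl arrays lay above the HS and CS arrays without overlap. The change was -1.05 (SE 0.31) in Ofanto HS, -1.32 (SE 0.31) in Ofanto CS, -1.08 (SE 0.31) in Cappelli HS and -1.21 (SE 0.31) in Cappelli CS, and the second PS of the pair had log2 changes of -1.73, -1.31, -1.82 and -1.54.

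The PS matching CRK10, a cysteine-rich receptor kinase (At4g23180), read 512, 525 and 594 in Ofanto Ctrl, 384, 436 and 449.6 in Ofanto HS and 90.9, 133 and 85.4 in Ofanto CS. In Cappelli it read 426, 486 and 579 in Ctrl, 164, 173 and 213 in HS and 175, 213 and 111 in CS. Cappelli was thus already low in HS, without overlap with its Ctrl, whereas the Ofanto change of -0.36 (SE 0.21) in HS was not called and that of -2.42 (SE 0.21) in CS was. Some Ofanto CS arrays lay under the percentile, so the size of that fall is uncertain. The PS matching CCR4, a CRINKLY4-related kinase (At5g47850), fell with a log2 change of -1.33 (SE 0.26) in Ofanto CS, -1.52 (SE 0.26) in Cappelli HS and -1.40 (SE 0.26) in Cappelli CS. The weaker match At5g10530, a lectin receptor kinase, read 571, 642 and 678 in Cappelli Ctrl, 116, 33.7 and 72.2 in Cappelli HS and 79.4, 138 and 66.8 in Cappelli CS. It was called lower in Cappelli HS, where the fall was at least 5.05-fold, and in Cappelli CS, with a log2 change of -2.80 (SE 0.69). Some Cappelli CS arrays lay under the percentile, so the size there is uncertain. In Ofanto Ctrl it was dim (90.4, 112 and 98.8). It passed the filter only through Cappelli Ctrl and Cappelli DS, the groups where it was high, so nothing is read from its falls.

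FERONIA (At3g51550) is a receptor of RALF peptides that senses the cell wall in Arabidopsis, and 4 PSs match it, all inside the 9 clusters. The 4 had their highest group mean in Ofanto CS, with log2 changes of 2.73, 2.30, 1.97 and 1.70, and in Cappelli HS they changed by 1.69, 1.11, 1.23 and 1.23. The first of these had the widest range. FERONIA read 567, 621 and 565 in Ofanto Ctrl, 1551, 1265 and 1579 in DS, 1012, 1553 and 1430.1 in HS and 3807, 3651 and 4142 in CS. In Cappelli FERONIA read 855, 992 and 662 in Ctrl, 682, 704 and 822 in DS, 2943, 2658 and 2416 in HS and 2326, 2434 and 2139 in CS. The Ofanto CS arrays did not overlap any other group, the Ofanto DS arrays lay above Ofanto Ctrl and Cappelli DS, and Cappelli DS overlapped Cappelli Ctrl. It was the member called higher in Ofanto DS, by 1.32 (SE 0.16), against -0.17 (SE 0.16) in Cappelli DS.

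The narrowest range of the FERONIA PSs was that of the last, whose name carries the suffix for probes shared with other sequences. This PS read 637, 384 and 580.5 in Ofanto Ctrl, 1013, 855 and 750.2 in DS, 654, 826 and 491 in HS and 1582, 1523 and 2000 in CS. In Cappelli FERONIA read 538, 601 and 436 in Ctrl, 409, 479 and 549 in DS, 1468, 1357 and 920.5 in HS and 1357, 871 and 973 in CS. Its change was 1.70 (SE 0.24) in Ofanto CS, 1.23 (SE 0.24) in Cappelli HS and 1.01 (SE 0.24) in Cappelli CS, and it was not called in Ofanto DS (0.73 (SE 0.24)) or Ofanto HS (0.30 (SE 0.24)).

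The proline-rich extensin-like receptor kinases (PERKs), named for an extensin-like domain outside the cell, made up 11 members, 8 of them by a weaker match and 7 inside the 9 clusters. In Ofanto 7 were called higher (10.4% of all kept PSs) and 1 lower (7.46%) in HS, and 7 higher (14.4%) and 2 lower (19.7%) in CS. In Cappelli 8 were called higher (11.2%) and 2 lower (13.6%) in HS, and 7 higher (9.89%) and 2 lower (11.8%) in CS. None was called in DS of either cultivar. Since these PSs were listed for such changes, nothing is read from the counts. The widest range, by a weaker match inside the clusters, was that of PERK6 (At3g18810). PERK6 read 13.4, 61.5 and 74.5 in Ofanto Ctrl, 97.3, 131 and 19.5 in DS, 413, 290.4 and 195 in HS and 1561, 1590.5 and 1684 in CS. In Cappelli PERK6 read 88.2, 23.1 and 18.8 in Ctrl, 212, 65.1 and 31.2 in DS, 1897, 1476 and 1294 in HS and 1131, 1195 and 1813 in CS. The Ctrl groups of both cultivars and Ofanto DS lay under the percentile, so the rise was at least 2.04-fold in Ofanto HS, 11.5-fold in Ofanto CS, 11.3-fold in Cappelli HS and 9.96-fold in Cappelli CS. Ofanto HS lay below Ofanto CS and Cappelli HS without overlap.

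The narrowest range was that of PERK4 (At2g18470), a weaker match outside the clusters that was called in no comparison with Ctrl. PERK4 read 357, 301 and 323 in Ofanto Ctrl, 475, 524 and 409 in DS, 291, 288 and 332 in HS and 555, 548 and 801 in CS. In Cappelli PERK4 read 874, 841 and 855 in Ctrl, 717, 965 and 837 in DS, 566, 562 and 694 in HS and 843, 582 and 382 in CS. The Cappelli Ctrl arrays lay well above the Ofanto Ctrl arrays, and the CS arrays of the cultivars overlapped. The 3 PERK members with a strong match were a PERK1 PS (At3g24550) that fell and a pair of PERK8 PSs (At5g38560) that rose in Cappelli HS, by 1.82 (SE 0.37) and 1.13 (SE 0.20). Of that pair the first was not called in Ofanto HS and CS (-0.03 (SE 0.37) and 0.32 (SE 0.37)) and the second rose there (1.22 (SE 0.20) and 1.73 (SE 0.20)).

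Receptor-like cytoplasmic kinases lack the outer domain and relay signals from receptors inside the cell. Among their 6 PSs the widest range was that of the At3g59350 PS outside the clusters. At3g59350 read 1228, 1191 and 1088 in Ofanto Ctrl, 639.9, 593 and 687 in DS, 328, 322 and 433 in HS and 54.0, 258 and 137 in CS. In Cappelli At3g59350 read 1960.1, 1823 and 1937 in Ctrl, 1541, 1755 and 1847 in DS, 550.5, 535 and 475 in HS and 224, 515 and 604 in CS. Cappelli Ctrl lay above Ofanto Ctrl, and the heated arrays of both cultivars lay below their Ctrl arrays. The change was -1.71 (SE 0.39) in Ofanto HS, -3.23 (SE 0.39) in Ofanto CS, -1.88 (SE 0.39) in Cappelli HS and -2.21 (SE 0.39) in Cappelli CS. The Ofanto CS array at 54.0 lay under the percentile, so the size there is uncertain. The narrowest range was that of the weaker match At3g07070, which was called in no comparison with Ctrl. It read 1368, 1298 and 1247 in Ofanto Ctrl and 612, 773 and 594 in Ofanto CS, a change of -0.99 (SE 0.20).

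The PS matching At5g65530 was the member called lower in Ofanto DS. At5g65530 read 3831, 3479.8 and 2967 in Ofanto Ctrl, 1207, 1392 and 1675 in DS, 2299, 2335 and 2351 in HS and 464, 401 and 410.1 in CS. In Cappelli At5g65530 read 3705, 3788 and 3808 in Ctrl, 2749, 3082 and 2986 in DS, 816, 898 and 942 in HS and 870.4, 2036 and 1966 in CS. Ofanto fell in DS with a log2 change of -1.27 (SE 0.22), lay between DS and Ctrl in HS without overlapping either (-0.55 (SE 0.22), not called) and was lowest in CS, where it fell with a log2 change of -3.01 (SE 0.22). Cappelli changed by -0.36 (SE 0.22) in DS, fell with a log2 change of -2.09 (SE 0.22) in HS and with a log2 change of -1.31 (SE 0.22) in CS, and its CS replicate 1 read below both other CS arrays. PBL27, which relays chitin signals in Arabidopsis (At5g18610, inside the clusters), rose in Ofanto CS by 1.47 (SE 0.11) and was not called in any other comparison with Ctrl.

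The 3 CIPK PSs in the rows held here each went their own way. CIPK12 (At4g18700) had the widest range. CIPK12 read 3535, 3371 and 3039 in Ofanto Ctrl, 2389, 2842 and 2742 in DS, 1942, 1828 and 1623 in HS and 1324, 983 and 882 in CS. In Cappelli CIPK12 read 3490.1, 2688 and 2241 in Ctrl, 2897, 2023 and 2789 in DS, 876, 769 and 529 in HS and 713, 1242 and 1112 in CS. The cultivars overlapped in Ctrl and CS but not in HS, where Cappelli was the lower. It fell with a log2 change of -1.66 (SE 0.23) in Ofanto CS, -1.96 (SE 0.23) in Cappelli HS and -1.47 (SE 0.23) in Cappelli CS, while the change of -0.88 (SE 0.23) in Ofanto HS was not called.

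CIPK18 (At1g29230, inside the clusters) had the narrowest range. CIPK18 read 684, 731 and 726 in Ofanto Ctrl, 1078, 1296 and 1256 in DS, 1319.9, 1183 and 1352 in HS and 2265, 2093 and 1905 in CS. In Cappelli CIPK18 read 1167, 1594 and 1498 in Ctrl, 1013, 851 and 959.6 in DS, 2068, 1444 and 2018 in HS and 2628, 1991 and 1638 in CS. Ofanto Ctrl lay below every other group. It rose in Ofanto CS by 1.55 (SE 0.17) and was called in no Cappelli comparison, the Cappelli changes being -0.58 (SE 0.17) in DS, 0.37 (SE 0.17) in HS and 0.54 (SE 0.17) in CS. Cappelli Ctrl lay above Ofanto Ctrl, and the CS groups overlapped.

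The weaker match CIPK20 (At5g45820) was the member called higher in Cappelli DS. CIPK20 read 1245, 1194 and 1742 in Ofanto Ctrl, 2145, 1683 and 1496 in DS, 1203, 1635 and 1616 in HS and 1416, 1621 and 1513 in CS. In Cappelli CIPK20 read 497, 502 and 516 in Ctrl, 1409, 1936 and 1158 in DS, 2107, 1858 and 1546 in HS and 1543, 2203 and 2208 in CS. The 3 Cappelli Ctrl arrays stood apart below all 21 others, which overlapped between the cultivars in DS, HS and CS. From Ctrl, Cappelli rose by 1.54 (SE 0.21) in DS, 1.85 (SE 0.21) in HS and 1.96 (SE 0.21) in CS. The Ofanto changes of 0.35 (SE 0.21), 0.10 (SE 0.21) and 0.14 (SE 0.21) were not called.

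**Figure D3:**
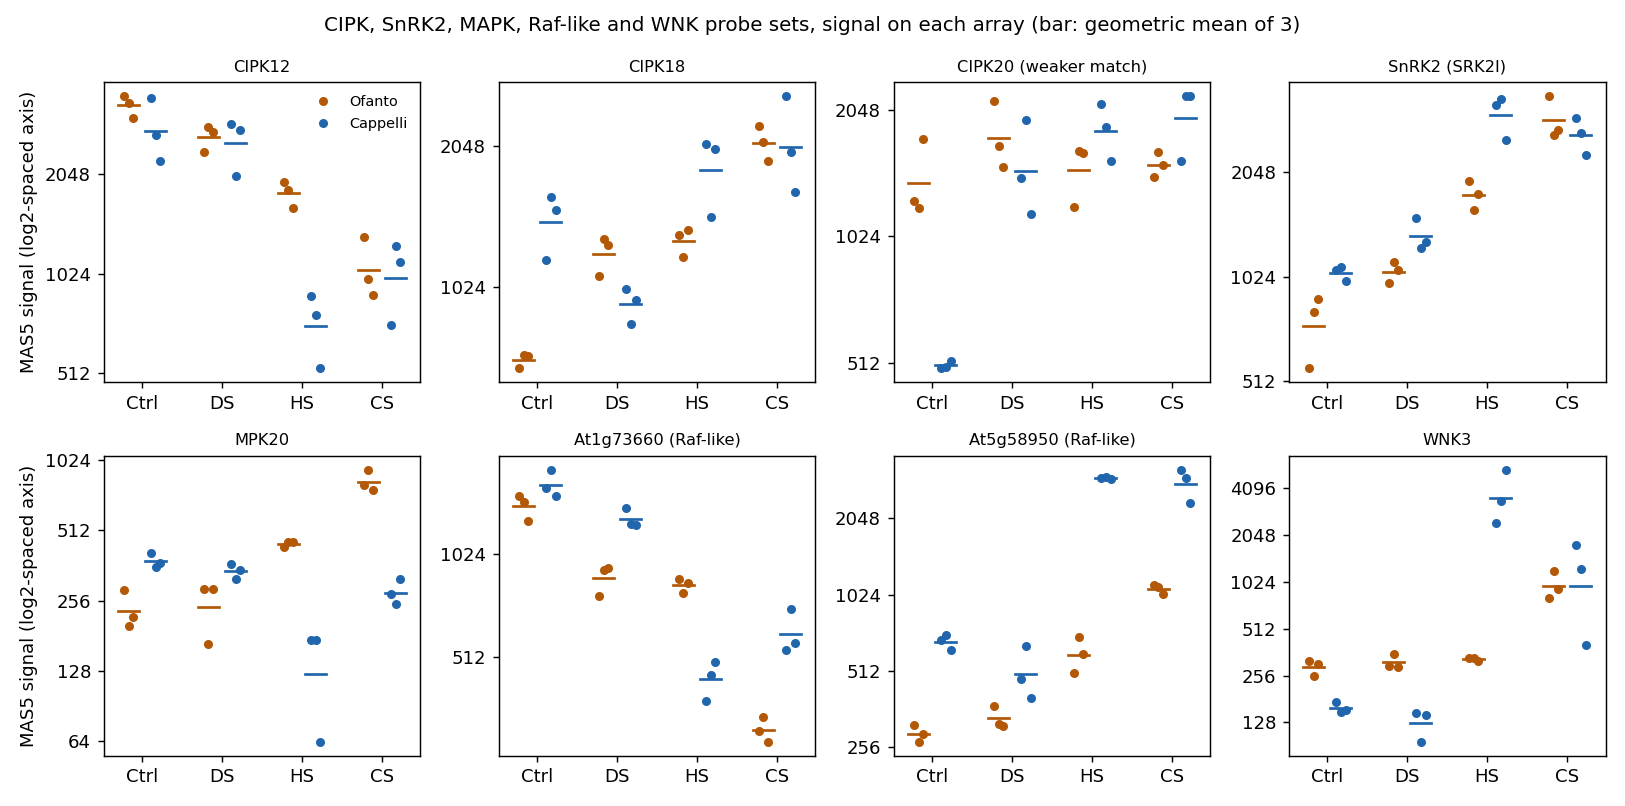
MAS5 signal on each array (points) and the geometric mean of 3 (bars) for 8 cytoplasmic kinase PSs, on a log2-spaced axis, by treatment and cultivar. CIPK20 is low only in Cappelli Ctrl, and MPK20 in HS lies above Ctrl in Ofanto and below it in Cappelli.

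Of the SnRK PSs 4 lay inside the clusters, and the widest range was that of SnRK2.3 (At5g66880, also SRK2I), a kinase activated by abscisic acid and water loss in Arabidopsis. Some PSs that the study matches to OST1 share the sequence number in their name with this PS, so they may not read separate wheat genes. SnRK2.3 read 559, 809 and 884 in Ofanto Ctrl, 979, 1131 and 1070.5 in DS, 1922, 1588 and 1768 in HS and 3380.1, 2605 and 2696 in CS. In Cappelli SnRK2.3 read 1069, 1091 and 992 in Ctrl, 1511, 1234 and 1284 in DS, 3176, 3304 and 2528 in HS and 2927, 2647 and 2282 in CS. The signal was higher in HS and CS than in Ctrl in both cultivars without overlap, and in HS the Cappelli arrays lay above the Ofanto arrays. It rose by 1.25 (SE 0.16) and 1.96 (SE 0.16) in Ofanto HS and CS and by 1.51 (SE 0.16) and 1.31 (SE 0.16) in Cappelli HS and CS. In DS it changed by 0.52 (SE 0.16) in Ofanto and 0.35 (SE 0.16) in Cappelli, and neither was called.

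The narrowest range was that of KIN10, the catalytic subunit of the energy sensor SnRK1 (At3g01090). KIN10 read 6860.4, 6201 and 7002 in Ofanto Ctrl, 6223, 6550.5 and 6558 in DS, 5846, 7480.5 and 6569 in HS and 18064, 11418 and 15678 in CS. In Cappelli KIN10 read 9858, 8808 and 9818 in Ctrl, 9343, 9011 and 9965 in DS, 16871, 13160 and 17579 in HS and 16982, 14086 and 10181 in CS. Cappelli lay above Ofanto in Ctrl, DS and HS without overlap, and the CS arrays overlapped. It rose by 1.15 (SE 0.18) in Ofanto CS, and its changes of 0.73 (SE 0.18) and 0.50 (SE 0.18) in Cappelli HS and CS were not called. A pair of PSs matching the SnRK1 beta subunit At2g28060, which is a partner of the kinase and not a kinase itself, rose in Ofanto CS by 1.32 (SE 0.12) and 1.52 (SE 0.12). Outside the clusters, SnRK2.5 (At5g63650, also SRK2H) was called in no comparison with Ctrl. Its Ofanto DS arrays, at 6452, 7334 and 7209, lay above the Ofanto Ctrl arrays at 5174, 5017 and 4613, a change of 0.50 (SE 0.13).

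The only MAP kinase among the members was MPK20 (At2g42880), outside the clusters. MPK20 read 283, 199 and 218 in Ofanto Ctrl, 288, 166 and 286 in DS, 436, 456 and 456 in HS and 803, 933 and 762 in CS. In Cappelli MPK20 read 411, 356 and 371 in Ctrl, 368, 316 and 348 in DS, 174, 173 and 63.3 in HS and 273, 247 and 316 in CS. In Ofanto the signal was higher in HS and higher again in CS, each without overlap with Ctrl, whereas in Cappelli HS it lay below Ctrl. It rose by 1.85 (SE 0.29) in Ofanto CS and fell with a log2 change of -1.61 (SE 0.29) in Cappelli HS. The changes of 0.96 (SE 0.29) in Ofanto HS and -0.45 (SE 0.29) in Cappelli CS were not called. Cappelli HS replicate 3 read the lowest of the 24 arrays and lay under the percentile, so sizes that rest on Cappelli HS are uncertain.

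Raf-like kinases resemble the MAP kinase kinase kinases at the top of MAP kinase cascades, and 3 PSs match them. The widest range was that of At5g58950, inside the clusters. At5g58950 read 313, 269 and 288 in Ofanto Ctrl, 374, 317 and 311 in DS, 504, 695 and 598 in HS and 1114, 1100.1 and 1029 in CS. In Cappelli At5g58950 read 676, 708 and 618 in Ctrl, 478, 641 and 399 in DS, 2956, 2971 and 2928 in HS and 3179.8, 2948 and 2356 in CS. Cappelli lay above Ofanto in all 4 treatments without overlap. It rose by 1.04 (SE 0.16) and 1.90 (SE 0.16) in Ofanto HS and CS and by 2.15 (SE 0.16) and 2.07 (SE 0.16) in Cappelli HS and CS. At5g49470, also inside the clusters, rose by 2.01 (SE 0.37) in Ofanto CS, 2.32 (SE 0.37) in Cappelli HS and 1.78 (SE 0.37) in Cappelli CS. A Cappelli Ctrl array lay under the percentile, so the Cappelli sizes are uncertain.

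At1g73660, outside the clusters, had the narrowest range and went the other way. At1g73660 read 1513, 1449.6 and 1275 in Ofanto Ctrl, 773, 920.3 and 927 in DS, 863, 785 and 843 in HS and 310.4, 342 and 289 in CS. In Cappelli At1g73660 read 1587, 1800 and 1504 in Ctrl, 1391, 1248 and 1241 in DS, 380.4, 455 and 495 in HS and 538, 705 and 562 in CS. In both cultivars Ctrl lay above DS, HS and CS without overlap, while the order of HS and CS was not the same, Ofanto being lower in CS and Cappelli in HS. It fell with a log2 change of -2.17 (SE 0.13) in Ofanto CS, -1.88 (SE 0.13) in Cappelli HS and -1.45 (SE 0.13) in Cappelli CS.

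WNK kinases are named for a displaced lysine in the active site, and both of their PSs lay inside the clusters. WNK3 (At3g48260) had the wider range. WNK3 read 319, 254 and 301 in Ofanto Ctrl, 293, 351 and 290.0 in DS, 332, 331 and 318 in HS and 808, 1198 and 922 in CS. In Cappelli WNK3 read 172, 149 and 154 in Ctrl, 148, 95.8 and 142 in DS, 2442, 3392 and 5359 in HS and 1755, 1227 and 404 in CS. Cappelli lay below Ofanto in Ctrl and DS and far above it in HS, while the 3 Cappelli CS arrays were spread widely and overlapped Ofanto CS. It rose by 4.48 (SE 0.37) in Cappelli HS, 2.59 (SE 0.37) in Cappelli CS and 1.73 (SE 0.37) in Ofanto CS, against 0.17 (SE 0.37) in Ofanto HS. The weaker match WNK4 (At5g58350) read 3432, 3462 and 2437 in Ofanto Ctrl and 8256, 7310.1 and 7139.8 in Ofanto CS, where it rose by 1.30 (SE 0.14). In Cappelli it read 3682, 3895 and 4252 in Ctrl, 6628, 6050.3 and 6458 in HS and 7618, 5795 and 5605 in CS, changes of 0.70 (SE 0.14) and 0.67 (SE 0.14) that were not called.

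Among the 14 PSs of other kinases, 6 were called higher (14.4% of all kept PSs) and 2 lower (19.7%) in Ofanto CS. In Cappelli HS 4 were called higher (11.2%) and 3 lower (13.6%). Nothing is read from these counts, since the PSs were listed for such changes. The widest range was that of 1 of a pair of PSs matching S6K1 (At3g08730), a kinase downstream of the growth regulator TOR. S6K1 read 225, 206 and 128 in Ofanto Ctrl, 456, 322 and 404 in DS, 710.4, 510.4 and 406 in HS and 1811, 1593 and 1594 in CS. In Cappelli S6K1 read 227, 120.1 and 167 in Ctrl, 275, 187 and 257 in DS, 1173, 1308 and 1734 in HS and 1137, 835 and 372 in CS. The HS arrays of Cappelli lay above those of Ofanto, and in Cappelli CS replicate 3 read below the other CS arrays. It rose by 1.55 (SE 0.34) in Ofanto HS, 3.20 (SE 0.34) in Ofanto CS, 3.06 (SE 0.34) in Cappelli HS and 2.09 (SE 0.34) in Cappelli CS. Some Ctrl arrays of both cultivars lay under the percentile, so these sizes are uncertain. The second S6K1 PS changed by 0.40, 2.44, 2.12 and 2.09, of which the first was not called.

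The narrowest range was that of 1 of 3 PSs matching TOUSLED (At5g20930), a kinase first known from leaf and flower development. It read 927, 1022 and 921 in Ofanto Ctrl and 1726, 1494 and 1272 in Ofanto CS, a change of 0.64 (SE 0.13) that was not called, while the other TOUSLED PSs rose there by 1.48 (SE 0.15) and 1.66 (SE 0.28). PEPKR2 (At1g12680), which resembles PEP carboxylase kinases, read 1268, 1316 and 1407 in Ofanto Ctrl, 1257, 1453 and 1428 in Ofanto HS and 4644, 5643 and 4971 in Ofanto CS. It read 1225, 1225 and 1362 in Cappelli Ctrl, 1959, 1966 and 2994 in Cappelli HS and 1987, 1829 and 1936 in Cappelli CS. Its one call against Ctrl was the rise of 1.93 (SE 0.13) in Ofanto CS, and no Cappelli CS array reached the Ofanto CS arrays.

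Outside the clusters all calls of this group against Ctrl were lower. STN8 (At5g01920), which phosphorylates photosystem II core proteins, read 4245, 3621 and 3723 in Ofanto Ctrl, 1957, 2259 and 2285 in Ofanto HS and 1454, 1482 and 1648 in Ofanto CS, and fell with a log2 change of -1.34 (SE 0.21) in CS. In Cappelli it read 2078, 2135 and 1684 in Ctrl and 1149, 2359.5 and 2550.4 in CS, a change of -0.04 (SE 0.21). AFC2 (At4g24740), which phosphorylates splicing factors, fell with a log2 change of -1.01 (SE 0.14) in Ofanto HS. The GSK3-type kinase ASK-alpha (At5g26751) fell with a log2 change of -1.11 (SE 0.15) and -1.10 (SE 0.15) in Cappelli HS and CS and changed by -0.53 (SE 0.15) in Ofanto CS. VPS15, the partner of phosphatidylinositol 3-kinase (At4g29380, inside the clusters), changed by 0.82 (SE 0.12) in Ofanto CS, not called.

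Of the 10 Arabidopsis genes matched by more than 1 member, 6 had PSs called in 1 direction only and 4 had PSs called in both. These PSs may read different wheat genes or homoeologous copies, which the annotation does not tell apart. The PERK1 PSs were called in opposite directions in HS and CS of both cultivars, the strong match falling with a log2 change of -2.95 (SE 0.27) in Ofanto CS and -2.56 (SE 0.27) in Cappelli HS, and the weaker match rising by 1.97 (SE 0.18) and 1.66 (SE 0.18). In both of these groups the strong match had an array under the percentile, so the sizes of its falls are uncertain. The At3g59350 PSs were also called in opposite directions in HS and CS of both cultivars. The PS outside the clusters fell with a log2 change of -3.23 (SE 0.39) in Ofanto CS where the PS inside them rose by 2.20 (SE 0.12). For PERK8 the weaker match outside the clusters fell with a log2 change of -4.63 (SE 0.50) in Ofanto CS where a strong match inside them rose by 1.73 (SE 0.20). Some Ofanto CS arrays of the weaker match lay under the percentile, so the size of its fall is uncertain. For CDKG2 (At1g67580), a cyclin-dependent kinase, the PSs outside the clusters fell with a log2 change of -1.25 (SE 0.14) and -1.14 (SE 0.17) in Cappelli HS, while the PS inside them rose by 1.30 (SE 0.13) in Ofanto CS.

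**Figure D4:**
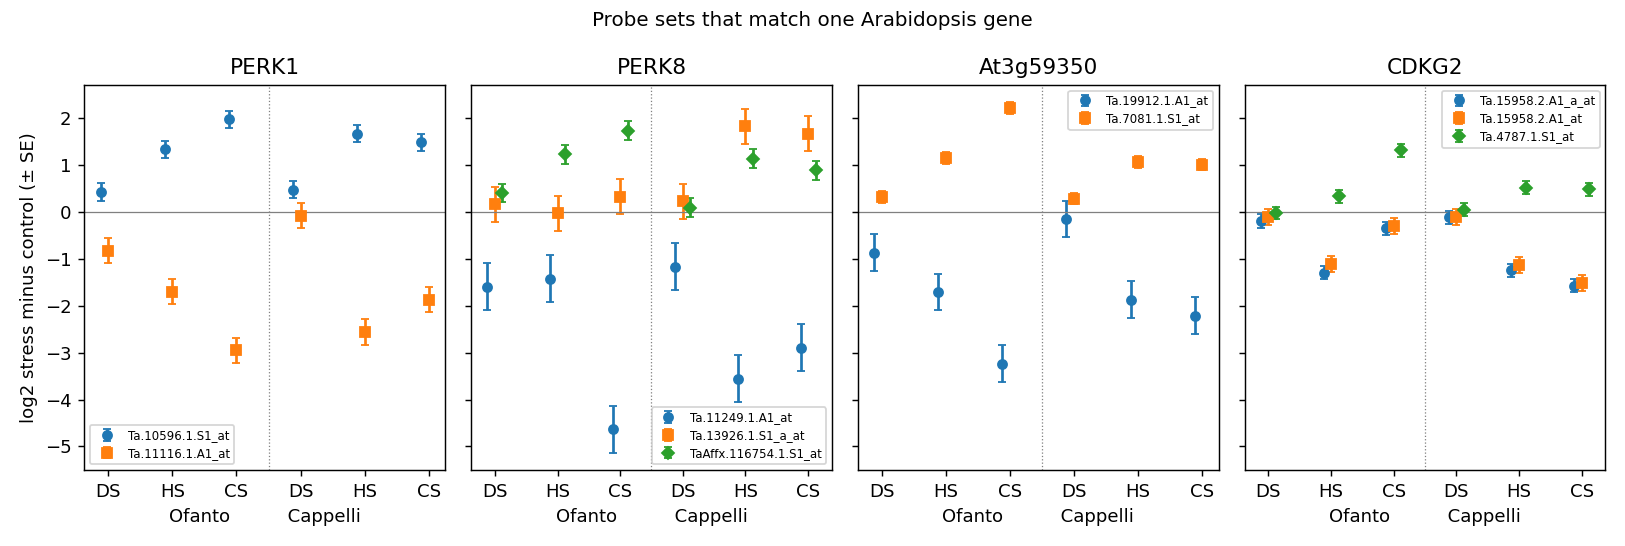
Log2 change from Ctrl (points, with SE bars) in DS, HS and CS of Ofanto and Cappelli for the PSs matching PERK1, PERK8, At3g59350 and CDKG2. For each gene at least 1 PS lies above 0 and 1 below 0 in HS and CS of both cultivars.

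Ofanto and Cappelli were then compared within each treatment by the same call rule. The study measured a lower relative water content and a higher leaf temperature in Cappelli than in Ofanto, with the widest gap in CS. The cultivars were thus not compared at equal leaf water or temperature. Of the 27 members outside the 9 clusters, 5 were called in Ctrl, 1 of them higher (6.42% of all kept PSs) and 4 lower (9.09%; 15.5% either way) in Ofanto. In DS 4 were called, 1 higher (5.12%) and 3 lower (5.16%; 10.3% either way). In HS 8 were called, 8 higher (11.4%) and 0 lower (9.24%; 20.6% either way). In CS 6 were called, 3 higher (5.62%) and 3 lower (10.1%; 15.7% either way), but 1 of the 3 lower calls, At5g38260, was dim on all arrays of both groups, and its direction is not read.

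The HS counts follow the split by cluster. Inside the 9 clusters 0 members were called higher and 11 lower in Ofanto HS. The other annotated PSs divided in the same way, with 2 higher and 785 lower among the 1702 inside the clusters and 332 higher and 144 lower among the 1395 outside them. Outside the clusters the members' shares in HS were thus 29.6% higher and 0% lower, beside 23.8% and 10.3% of those 1395 PSs. In Ctrl the members' shares were 3.7% higher and 14.8% lower beside 12.3% and 15.8%, in DS 3.7% and 11.1% beside 10.2% and 11.3%, and in CS 11.1% and 11.1% beside 9.39% and 19.4%. Nothing about kinases is read from these shares.

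In Ctrl the 4 receptor kinase PSs called outside the clusters were lower in Ofanto. At5g38260 read 278, 133 and 139 in Ofanto against 1299, 1179 and 1358 in Cappelli, a log2 difference of -2.89 (SE 0.82). Some of these Ofanto arrays lay under the percentile, so the size is uncertain. At5g10530 read 90.4, 112 and 98.8 against 571, 642 and 678, which is at least 4.48-fold lower. It had passed the filter only through Cappelli Ctrl and Cappelli DS, the groups where it was high, so nothing is read from this difference. Neither pair of groups overlapped. The At5g38260 call was lost in 21 of 33 alternatives and the At5g10530 call in 8 of 33, both without the filter and without any 1 of the 6 Ctrl arrays. CCR4 had a difference of -1.03 (SE 0.26), lost in 9 of 33, and PERK4 one of -1.39 (SE 0.21). Without both Ofanto Ctrl arrays that carry the drought text, the At5g38260, At5g10530 and CCR4 calls were lost. Among the other kinases CIPK20 was 1.44 (SE 0.21) higher in Ofanto. Inside the clusters PERK12, dim in Cappelli Ctrl, was called at least 1.48-fold higher in Ofanto Ctrl.

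In DS, At5g10530 read 144, 90.9 and 179 in Ofanto against 658, 795 and 945 in Cappelli. Its difference of -2.57 (SE 0.69) is of uncertain size, since some Ofanto arrays lay under the percentile. Its call was lost in 18 of 33 alternatives, among them no filter and leaving out any 1 of the 6 Ctrl or 6 DS arrays, and the limit on its filter holds here too. CCR4 differed by -1.09 (SE 0.26) and At5g65530 had a difference of -1.06 (SE 0.22). SnRK2.5 was higher in Ofanto, at 6452, 7334 and 7209 against 4026, 3124 and 3107. Its difference of 1.04 (SE 0.13) was just past 2-fold, and the call was lost without Cappelli DS replicate 2 or 3 and when arrays were centred on their median. The CCR4 call was lost without the filter, without Ofanto DS replicate 2 or 3 or without Cappelli DS replicate 3, and the At5g65530 call without Ofanto DS replicate 1. The At5g38260 difference of -1.86 (SE 0.82) was not called in DS, although the arrays did not overlap.

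The 8 PSs called in HS outside the clusters were the weaker PERK8 match with a log2 difference of 2.54 (SE 0.50), MPK20 with 1.86 (SE 0.29), SOBIR1 with 1.67 (SE 0.27), At5g65530 with 1.40 (SE 0.22), CIPK12 with 1.34 (SE 0.23), CRK10 with 1.21 (SE 0.21), the strong PERK1 match with 1.09 (SE 0.27) and At2g24130. At2g24130 was dim in Cappelli HS and at least 1.71-fold higher in Ofanto. The weaker PERK8 match, MPK20 and the strong PERK1 match had some Cappelli HS arrays under the percentile, so the sizes of their differences are uncertain. In each of the 8 the 3 Ofanto HS arrays lay above the 3 Cappelli HS arrays. Being called in this comparison makes that likely, so it adds nothing to the calls. The PERK1 call was lost without Ofanto HS replicate 3 or Cappelli HS replicate 3, and the At2g24130 call without Ofanto HS replicate 2 or 3 or Cappelli HS replicate 1 or 2. Both were lost without the filter, and both and the MPK20 call were lost when only the groups compared were fitted. Of the green leaf list, 6 of 9 PSs were called higher and 2 lower in Ofanto HS, with a median of 1.97 log2. Of 13 histone PSs, picked by annotation for dividing tissue, 0 were higher and 7 lower, with a median of -1.29 log2. The study describes histone genes as activated by stress. Against Ctrl in Cappelli HS, 5 of the 13 were called higher and 4 lower, from -4.76 to 8.66 log2. Neither list is read as a measure of a tissue, and the part of cell types in the kinase differences was not tested.

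In CS, MPK20 was again higher in Ofanto, by 1.58 (SE 0.29). Both CDKG2 PSs outside the clusters, called between the cultivars in no other treatment, were higher in Ofanto by 1.10 (SE 0.14) and 1.04 (SE 0.17). At5g65530 was lower in Ofanto, at 464, 401 and 410.1 against 870.4, 2036 and 1966 with a difference of -1.84 (SE 0.22), the opposite of its HS difference. At3g59350 was also lower, with a difference of -1.73 (SE 0.39) and overlapping arrays. Both CDKG2 calls and the At3g59350 call were lost without Cappelli CS replicate 2, the second CDKG2 call also without Ofanto CS replicate 3, it and the At3g59350 call without Cappelli CS replicate 3, and the At5g38260 call without Ofanto CS replicate 1 or 2. With only the groups compared, all of these calls but that of MPK20 were lost. Without Cappelli CS replicate 1 the number of these members called in CS was 12, and without Cappelli CS replicate 2 it was 3.

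**Figure D5:**
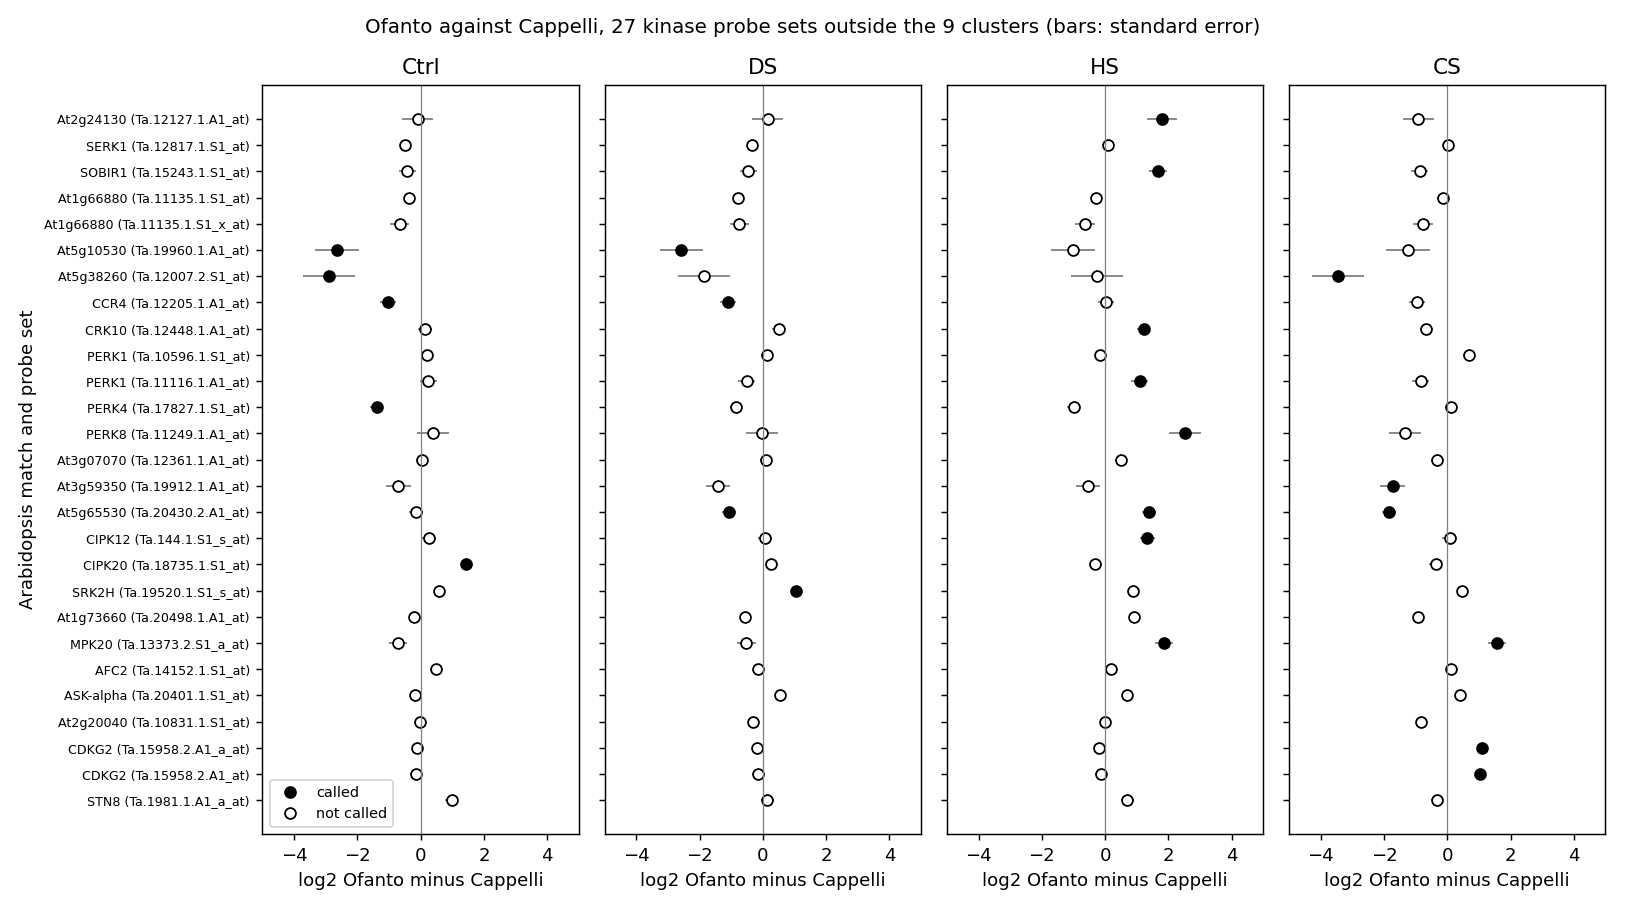
Log2 difference Ofanto minus Cappelli (points, with SE bars) in Ctrl, DS, HS and CS for the 27 kinase PSs outside the 9 clusters. Filled points were called, and the 8 in HS lie above 0, while the 11 members called in HS inside the clusters, not drawn, were lower in Ofanto.

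The difference between the cultivars in the response to a stress passed the call rule for 20 members, in 27 cases. In DS 3 were higher in Ofanto (2.88% of all kept PSs) and 0 lower (1.21%; 4.09% either way), in HS 5 higher (8.39%) and 5 lower (5.33%; 13.7% either way), and in CS 10 higher (8.33%) and 4 lower (9.72%; 18.1% either way). They are built from the comparisons that listed the members and are given as values. MPK20 had the largest called difference of a member outside the clusters, 2.57 (SE 0.41) in HS and 2.30 (SE 0.41) in CS. The HS value rests in part on Cappelli HS replicate 3, which lay under the percentile. CIPK20 had differences of -1.75 (SE 0.29) and -1.81 (SE 0.29) in HS and CS, rising in Cappelli. WNK3, inside the clusters, had -4.31 (SE 0.53) in HS. SOBIR1 fell less in Ofanto HS than in Cappelli HS, the difference being 2.09 (SE 0.39), and At5g65530 had differences of 1.54 (SE 0.31) in HS and -1.69 (SE 0.31) in CS.

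Partners of these kinases in the same lists were counted for comparison. Of 11 PSs annotated as protein phosphatase 2C, a class whose group A members hold SnRK2 kinases inactive, 5 were called higher and 1 lower in Ofanto CS, and 4 higher and 0 lower in Cappelli CS. Of 11 calcium-binding or calmodulin PSs, 4 were higher and 2 lower in Ofanto CS and 4 higher and 3 lower in Cappelli CS. The 1 MAP kinase phosphatase PS was called lower in Cappelli HS (-1.42) and CS (-1.06) and changed by -0.55 and -0.71 in Ofanto HS and CS. The 4 OST1 PSs held here, matching the SnRK2 kinase of stomatal closure, were all called higher in Ofanto CS and 1 of 4 in Cappelli CS. All these PSs were themselves listed for a change under stress, and nothing is read from their shares.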

How the data were processed

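Total RNA of 24 leaf samples was hybridised to 24 Affymetrix wheat arrays, 3 for each of 8 groups. The deposited values are MAS5 signals, a linear intensity per PS and array, which the authors made with the Affymetrix software; its version and target scaling are not given in the sources used here. For its lists the study describes RMA values, so sizes here can differ from those behind the listing. Of 61290 PSs, 111 controls were left out. Signals were taken to log2 without an offset and fitted with limma 3.58.1 in R 4.3.3, with 1 mean per group over all 24 arrays (16 residual df), and p-values were Benjamini-Hochberg adjusted over the 28072 kept PSs. Calls needed 2-fold or more and an adjusted p below 0.01. A test of the 27 members outside the 9 clusters between cultivars had been planned, but its p-values are not given because leaving out the clusters selects by the same profiles. Where all 3 arrays of a group lay under the percentile, a fold is given as a lower bound. Where only some did, the log2 value is given and its size is uncertain. The number of arrays limits the precision, and MAS5 signals hold no read depth. The fit was tested on simulated data.

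Members were found by annotation words in the parts of the lists held here (1836 and 1684 rows). The members and lists were chosen with earlier results of these data known. Genes were named by annotation: strong matches by role and the CIPK matches, with all arrays of the PSs of widest and narrowest range in each role; MPK20, SOBIR1, CIPK20, At5g65530 and the weaker PERK1, PERK8 and At5g10530 matches were singled out after their values were seen. The authors' own mean and comparison columns of the lists were not used. Replicate numbers were checked for pairing by the correlation of deviations from group means, which lay between -0.246 and 0.0733 over 84 same-numbered pairs, so the arrays were not treated as paired. The alternatives were no filter, median centring, quantile normalization, an offset of 16, the methods' t-test, only the groups compared, a replicate block, no minimum fold, leaving out each array, and leaving out both Ofanto Ctrl arrays that carry the drought text. PSs are named by their Arabidopsis match, and PS sequences were not used here.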

Additional observations from a re-analysis of the deposited data

Results flagged for a closer look

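For 20 members the difference between the cultivars in the response to a stress passed the threshold used throughout, in 27 cases. Each value is the log2 response of Ofanto minus that of Cappelli, positive where Ofanto rose more or fell less. The comparisons share the Ctrl arrays of each cultivar, and the same responses had listed the members, so the values are a description and not a test. In DS, FERONIA differed by 1.49 (the PS of widest range) and 1.10 (a second PS) and CIPK18 by 1.34.

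In HS the positive differences were 2.57 for MPK20, 2.09 for SOBIR1, 1.54 for At5g65530, 1.12 for At1g73660 and 1.08 for CRK10. The negative ones were -4.31 for WNK3, -2.79 for PERK12, -1.75 for CIPK20, -1.72 for 1 S6K1 PS and -1.11 for At5g58950. The PERK12 PS was dim in Cappelli Ctrl, so its value is not a measured size.

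In CS the positive differences were 2.30 for MPK20, 1.55 for PERK5, 1.52 for PERK4, 1.25 and 1.36 for the same FERONIA PSs, 1.34 for PEPKR2, 1.22 and 1.20 for the CDKG2 PSs outside the 9 clusters, 1.20 for the At3g59350 PS inside them and 1.01 for CIPK18. The negative ones were -1.92 for PERK12, -1.81 for CIPK20, -1.69 for At5g65530 and -1.30 for STN8.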

How the results depend on the processing

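Of 219 member calls over 13 comparisons none changed direction under 33 alternatives, and leaving out 1 array lost 2 to 11 of them. Changed counts are given in the order of the report. Without a filter, 5 members were called between cultivars in Ctrl (2 of them outside the 9 clusters), 3 in DS (2 outside) and 1 for the DS response. Under the methods' t-test on the same values, 0, 6 and 19 were called in Ofanto DS, HS and CS, 0, 11 and 3 in Cappelli DS, HS and CS, and 2, 0, 0 and 0 between cultivars (1, 0, 0 and 0 outside, At5g10530 in Ctrl). With only the groups compared, 0 were called in Cappelli DS, 3 between cultivars in CS (1 outside), 8 for the CS response, and 5 outside the clusters in HS. With no minimum fold, 8 were called in Ofanto DS and 14, 18, 30 and 21 between cultivars (8, 9, 13 and 11 outside). Without both Ofanto Ctrl arrays that carry the drought text, 1 was called in Ofanto DS and 2 outside between cultivars in Ctrl.

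Leaving out 1 array, the cultivar counts ranged from 5 to 8 in Ctrl (5 without Cappelli Ctrl replicate 3), 3 to 8 in DS (3 without Ofanto DS replicate 3 or Cappelli DS replicate 2), 16 to 20 in HS and 6 to 15 in CS (15 without Cappelli CS replicate 1). Outside the clusters they ranged from 2 to 5 in Ctrl (2 without Cappelli Ctrl replicate 3, 3 without any other Ctrl array), 1 to 5 in DS (1 without Cappelli DS replicate 3, 2 without any Ofanto DS array or Cappelli DS replicate 2), 7 to 8 in HS and 3 to 12 in CS. The counts against Ctrl ranged from 2 to 3, 20 to 26 and 44 to 46 in Ofanto DS, HS and CS and from 1 to 1, 38 to 41 and 30 to 39 in Cappelli. With the replicate number as a block, 25 and 44 were called in Ofanto HS and CS, 41 and 37 in Cappelli HS and CS and 5, 4, 8 and 6 outside the clusters between cultivars. The block changed 2 of the 219 calls, 1 of them At5g10530 in DS, which was lost. Median centring moved the median of all kept PSs by up to 0.359 log2 (Ofanto CS) and lost 13 calls, quantile normalization 6. The causes were not tested. Signals under the percentile carry no order, which limits At5g38260, At5g10530, At2g24130, PERK6 and PERK12, each dim on all 3 arrays of at least 1 group. Other members had only some arrays of a group under the percentile, and their log2 sizes there are uncertain. Among them are the weaker PERK8 match, the strong PERK1 match, CRK10 and the At3g59350 PS outside the clusters in Ofanto CS. The same limit holds in Ctrl for At5g38260 in Ofanto, At5g49470 in Cappelli and the S6K1 PS of widest range in both cultivars. It also holds for At5g10530 in Ofanto DS and Cappelli CS. MPK20, the weaker PERK8 match and the strong PERK1 match are so limited in Cappelli HS.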
